A study of Mus musculus with 4 samples.

Results

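Peaks of histone H3 lysine 27 acetylation (H3K27ac) at Actn4, Gse1 and Rnf220 were examined in Sv129 mouse embryonic stem cells (mESCs). The members were all rows of the main peak table whose gene symbol was 1 of these 3, which gave 6 peaks per gene and 18 of 4088 peaks in all. The genes were chosen by their number of rows in this table, so that number and the values of the same contrast are given as a description, with no test. Of 3466 symbols in the table, 8 had 6 or more rows (0.231%), and nothing was read from the members' place among them.

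Cells of the mESC line Sv129 were cultured in medium without folate (0 mg/L, FA0) or in medium with folate restored to a final 4 mg/L (FA4), so both groups share the line and the base medium. Chromatin was digested enzymatically and precipitated with an anti-H3K27ac antibody, and the groups were FA0 IP, FA0 input, FA4 IP and FA4 input with 1 library each. Normal cells of 1 line were split at random into the 2 media, so the groups are 2 cultures of that line. The question was where H3K27ac of these cells differs with folate.

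Each peak carries a pileup, the number of FA4 fragments stacked at its summit, a fold enrichment of FA4 over FA0, and a −log10 q from the peak caller. Which IP library served as control is not written in the table. Folds are read here as FA4 over FA0, from the name the study gave to these promoter regions. Under the opposite order all differences below would change direction. The paper describes slightly more H3K27ac at target genes in folate-deficient cells, and a list of regions higher in a single library cannot check that. The FA0 value of each peak is the local background recovered from fold and pileup, which is the largest local estimate of the peak caller and not the FA0 pileup at the summit. Regions with more H3K27ac in FA0 were not analysed here. With 1 library per group no difference has a replicate check, and folate cannot be told apart from the depth or the IP efficiency of a library. In the whole table the median pileup was 12 fragments, the lowest 8 and the highest 265, and each interval below is an exact Poisson 95% interval of the pileup that covers counting error only.

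H3K27ac is laid down by the acetyltransferases p300 and CBP and marks active promoters and enhancers. Actn4 encodes alpha-actinin-4, a non-muscle actin crosslinking protein found in stress fibres, cell junctions and the nucleus. Gse1 encodes a coiled-coil protein that was found in the BRAF35-HDAC complex with the histone demethylase Kdm1a and histone deacetylases. Rnf220 encodes a RING-type E3 ubiquitin ligase that modifies Gli transcription factors in the mouse neural tube and, with the deubiquitinase Usp7, stabilises beta-catenin.

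Over all 21896 protein-coding genes, 9.28% had a row. Of 15 embryonic stem cell markers, 8 had a row (53.3%, exact binomial 95% interval 26.6 to 78.7), among them Pou5f1, Nanog and Sox2. Of the other marker lists, 0 of 10 feeder fibroblast genes (0 to 30.8%), 2 of 5 trophoblast genes, Gata3 and Tfap2c (40%, 5.27 to 85.3), and 0 of 7 mesoderm and endoderm genes (0 to 41.0%) had a row. These intervals overlap. A gene without a row is one without a called gain in FA4, not one without H3K27ac, so the labelled cell type could not be checked from this table.

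The RefSeq promoter windows of the 3 genes (GRCm38.p6, the assembly of mm10, 250 bases before to 50 after the start site) are shown because none was overlapped by a listed peak, and because they differ in CpG content. Only the Actn4 window lies at the 5′ end of its gene. Those of Gse1 and Rnf220 lie at start sites inside the gene, and none at their 5′ ends was among the windows read. The CpG contents are therefore of windows at unlike places. All are written 5′ to 3′ on the gene's strand with each CpG in capitals.

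Actn4, chr7:28962283-28962582, minus strand: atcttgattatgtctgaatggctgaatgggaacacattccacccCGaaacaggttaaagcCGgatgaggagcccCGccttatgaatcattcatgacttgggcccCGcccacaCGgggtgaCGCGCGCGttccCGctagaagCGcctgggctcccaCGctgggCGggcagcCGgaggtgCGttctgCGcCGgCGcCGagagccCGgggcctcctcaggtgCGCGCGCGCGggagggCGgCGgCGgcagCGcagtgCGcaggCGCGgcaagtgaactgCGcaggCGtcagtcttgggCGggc

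Gse1, chr8:120535607-120535906, plus strand, the window closest to a Gse1 peak: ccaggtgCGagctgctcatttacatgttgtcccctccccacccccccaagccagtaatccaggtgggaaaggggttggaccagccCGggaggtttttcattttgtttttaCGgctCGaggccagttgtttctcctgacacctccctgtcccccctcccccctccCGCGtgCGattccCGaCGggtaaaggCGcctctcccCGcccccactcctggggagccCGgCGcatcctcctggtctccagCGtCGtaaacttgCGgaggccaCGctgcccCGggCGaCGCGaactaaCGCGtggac

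Rnf220, chr4:117375412-117375711, minus strand: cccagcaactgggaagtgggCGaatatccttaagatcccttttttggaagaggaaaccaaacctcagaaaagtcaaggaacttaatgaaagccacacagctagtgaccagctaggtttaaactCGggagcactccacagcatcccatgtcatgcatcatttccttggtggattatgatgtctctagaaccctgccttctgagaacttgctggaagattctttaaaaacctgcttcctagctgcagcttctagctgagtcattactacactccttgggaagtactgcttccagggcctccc

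The Actn4 window held 35 CpGs, more than 93.0% of the 32851 windows of 27025 genes, and its GC content was 68%. The Gse1 window held 23 CpGs (more than 78.5% of windows), and the other Gse1 windows held 17 and 37. The Rnf220 window, at a start site inside the gene, held 2 CpGs (more than 14.1% of windows) and had a GC content of 47%. The median window held 7 CpGs. The letters GGGCGG, searched on both strands and sharing a CpG with the capitals, were found 4 times in the Actn4 window, once in the Gse1 window and 0 times in the Rnf220 window, and 35.7% of all windows held at least 1. TATAAA, searched on both strands, was in none of the 3, against 13.6% of all windows. These are letter matches in the window and say nothing of factor binding. A listed peak overlapped 0.895% of all windows, and those 294 windows had a median of 23 CpGs. From the edges of the windows printed above, the closest listed peak was 391 bp away at Actn4, 3305 bp at Gse1 and 1347 bp at Rnf220.

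At Actn4, 3 of the 6 peaks lay within 3 kb of the start of the gene, and the other 3 lay further into it, the last with the lowest pileup. The gene (ENSMUSG00000054808) lies on the minus strand of chromosome 7, from 28893248 to 28962351, and is 69.1 kb long. Its peaks are numbered here in the direction of transcription, and their summits spanned 42.6 kb. The table placed 5 of the 6 in the promoter class, 3 within 1 kb of an annotated start site and 2 at 2 to 3 kb, with 4 different start sites named. The share of the promoter class over all peaks was 37.6%.

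Actn4 peak 1, at 28964909 to 28965373 and 2569 bp upstream of its start site, had an FA0 background of 16.4 and an FA4 pileup of 43 (31.1 to 57.9), a fold of 2.53. Peak 2, at 28961592 to 28961892, lay 331 bp downstream of a start site and had an FA0 background of 15.5 and an FA4 pileup of 46 (33.7 to 61.4), a fold of 2.85. These first peaks stand on either side of the gene's start, with 3016 bp between their edges and the CpG-rich window printed above inside that interval. Peak 3, at 28960422 to 28961330, followed 681 bp from the summit of peak 2 and was 909 bp wide. It had an FA0 background of 13.1 and an FA4 pileup of 52 (38.8 to 68.2), with a fold of 3.77 and a −log10 q of 11.0, the largest −log10 q among the 18 peaks. It was also the widest of the 18. Of all 4088 peaks, 98.8% were narrower than it, against a median width of 320 bp and a range of 252 to 2456 bp.

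Further into Actn4 the pileups were lower. Peak 4, at 28954666 to 28954918, was the only Actn4 peak of the intron class, in an intron of Actn4 itself, and had an FA0 background of 11.8 and an FA4 pileup of 35 (24.4 to 48.7). Its fold was 2.81. Peak 5, at 28949355 to 28949618, was called promoter because an annotated start site lay 141 bp away, and it falls inside the RefSeq lncRNA gene Gm51446. It had an FA0 background of 12.2 and an FA4 pileup of 39 (27.7 to 53.3), a fold of 3.04. Peak 6, at 28921916 to 28922316, stood 27.2 kb beyond peak 5. It had an FA0 background of 7.30 and an FA4 pileup of 20 (12.2 to 30.9), a fold of 2.53 and the smallest −log10 q of the 18, 1.51. Its summit was the last base of the peak, so the highest point of that region was at its border. The pileup intervals of peaks 1 to 5 all overlapped one another, and the 3 non-overlapping pairs of 15 were peak 6 against peaks 1, 2 and 3.

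At Gse1 the peaks were spread over a far longer gene and differed most in height, with 3 tall peaks and 3 lower ones. Of the lower ones, peaks 1 and 5 were above 91.9% and 89.2% of all intron peaks in pileup, and peak 2 was above 40.6%. Gse1 (ENSMUSG00000031822) lies on the plus strand of chromosome 8, from 120228501 to 120581383, and is 353 kb long. All 6 peaks were of the intron class, which held 27.1% of all peaks, and 0 were of the promoter class. Their summits spanned 242.6 kb, and 3 start sites were named as nearest. The intron named in the table was not one of Gse1 in any of the 6 rows. Each was placed in intron 1 of a 15-intron transcript with another gene ID (ENSMUSG00000092329), and 32 peaks of 19 symbols over 4.17 Mb carried that transcript. Over all intron peaks 57.1% named an intron with the gene ID of their own row, as did the 1 Actn4 and all 4 Rnf220 intron peaks. By RefSeq coordinates all 6 Gse1 peaks lie inside the Gse1 gene.

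Gse1 peak 1, at 120289633 to 120289934 and 61177 bp downstream of its start site, had an FA0 background of 10.2 and an FA4 pileup of 26 (17.0 to 38.1), a fold of 2.41. Peak 2, at 120319117 to 120319374, had an FA0 background of 2.63 and an FA4 pileup of 11 (5.49 to 19.7), a fold of 3.31. Their −log10 q were 1.82 and 1.61. The tallest peaks came next and close together. Peak 3, at 120334013 to 120334276, had an FA0 background of 24.6 and an FA4 pileup of 67 (51.9 to 85.1), a fold of 2.66. Peak 4, at 120334561 to 120334873 with its summit 432 bp further on, had an FA0 background of 30.6 and an FA4 pileup of 81 (64.3 to 101), a fold of 2.60. Peak 4 had the largest pileup of the 18, above 99.4% of the 1107 intron peaks, and its −log10 q was 9.10.

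A further tall peak stood beside this pair under another symbol. It was listed for the miRNA gene Gm22715, lay at 120336648 to 120336979 with its summit 2287 bp from that of Gse1 peak 4, and had an FA0 background of 28.9 and an FA4 pileup of 66 (51.0 to 84.0), a fold of 2.24. The 3 peaks occupied 2967 bp, all of it inside the RefSeq lncRNA gene Gm32968, which lies within Gse1. The table named this region by nearest start sites, so a count by symbol split it. Gm22715 had 2 more peaks inside the Gse1 gene, one at 120381923 to 120382189 with an FA0 background of 2.76 and an FA4 pileup of 14, and one at 120430756 to 120431117 with an FA0 background of 3.34 and an FA4 pileup of 18.

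The last Gse1 peaks had no close neighbour under the Gse1 symbol. Peak 5, at 120467278 to 120467676, was 133 kb from peak 4, with the 3 Gm22715 peaks between them and the nearest of these 36.4 kb away by summits. It lay 20771 bp upstream of the start site closest to it, and had an FA0 background of 5.29 and an FA4 pileup of 22 (13.8 to 33.3). Its fold of 3.65 was the largest of the Gse1 peaks. Peak 6, at 120532002 to 120532302, had an FA0 background of 34.6 and an FA4 pileup of 66 (51.0 to 84.0). Its background was the highest of the 18 peaks and its fold of 1.88 the smallest. It lay 3555 bp upstream of the start site whose window is printed above, just beyond the 3 kb that defined a promoter in the table. A pileup of 66 or more was found at 17 of the 1107 intron peaks (1.54%), against an intron median of 11 fragments. These included Gse1 peaks 3, 4 and 6 and the Gm22715 peak beside peak 4. The cut of 66 is the pileup of peak 6 itself, so the place of these Gse1 peaks above it was fixed in advance. The pileup intervals of Gse1 peaks 3, 4 and 6 did not overlap those of the 3 lower Gse1 peaks, which gave 9 non-overlapping pairs of 15. The peaks were grouped by these same pileups. Pairs were not counted at other symbols, so the counts of pairs at each of the 3 genes are a description.

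At Rnf220 the median FA4 pileup was 13, low beside 41 at Actn4 and 46 at Gse1 but near the median of 12 over all peaks. A taller peak, of 33 fragments, lay near a start site inside the gene. Rnf220 (ENSMUSG00000028677) lies on the minus strand of chromosome 4, from 117271463 to 117497052, and is 225.6 kb long. The 6 summits spanned 188.7 kb. There were 4 intron peaks, 1 promoter peak and 1 exon peak, with 4 start sites named as nearest.

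Rnf220 peak 1, at 117500352 to 117500750, lay 3300 bp upstream of the gene and was called exonic because it falls in an exon of another gene, in the span of the RefSeq lncRNA gene Gm12827. It had an FA0 background of 1.96 and an FA4 pileup of 11 (5.49 to 19.7), a fold of 4.06. Peak 2, at 117487405 to 117487781, had an FA0 background of 3.42 and an FA4 pileup of 13 (6.92 to 22.2), a fold of 3.17. These were the only peaks near the 5′ end of the gene, and the next lay 110 kb away. Peak 3, at 117377058 to 117377348, was 1601 bp upstream of an internal start site, the one with the CpG-poor window printed above. It had an FA0 background of 12.6 and an FA4 pileup of 33 (22.7 to 46.3), with a fold of 2.50, and was the tallest and the least enriched of the Rnf220 peaks.

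The remaining Rnf220 peaks lay in introns toward the 3′ end. Peak 4, at 117339532 to 117339817, had an FA0 background of 4.58 and an FA4 pileup of 18 (10.7 to 28.4), a fold of 3.40. Peak 5, at 117319010 to 117319270, had an FA0 background of 1.79 and an FA4 pileup of 12 (6.20 to 21.0). Its fold of 4.67 was the largest of the 18 peaks, on the lowest background of the 18. Peak 6, at 117311475 to 117311739, had an FA0 background of 3.19 and an FA4 pileup of 13 (6.92 to 22.2), a fold of 3.34. Peaks 5 and 6 lie at the ends of a RefSeq lncRNA gene inside Rnf220, Gm40231 (117311744 to 117319430). Peak 5 ended 160 bp inside one end, and 4 bases separated peak 6 from the other. The pileup of peak 3 had an interval above those of peaks 1, 2, 5 and 6, the 4 non-overlapping pairs of 15, while its interval overlapped that of peak 4.

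**Figure D1:**
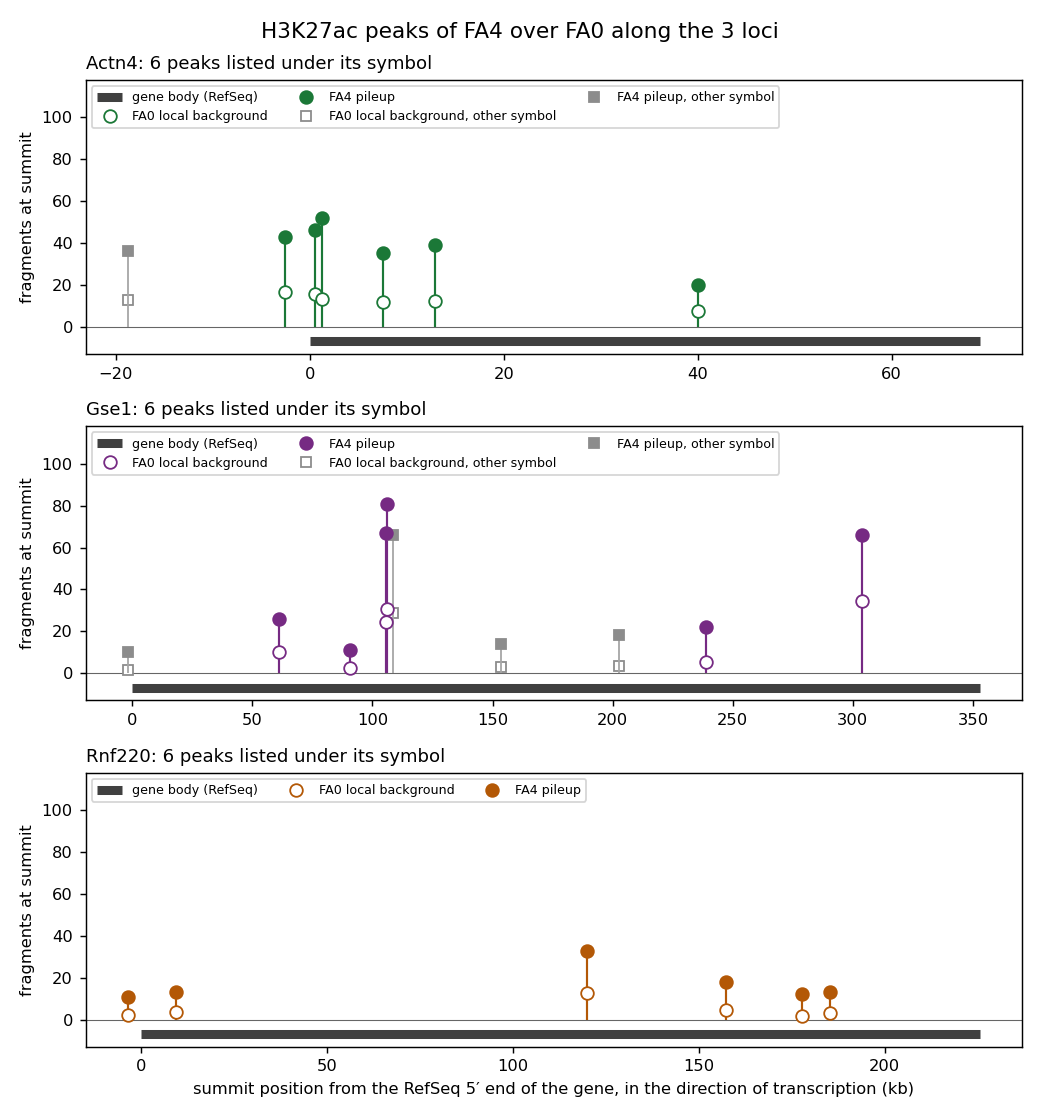
Position of each summit from the RefSeq 5′ end of the gene, in kb along the direction of transcription, against fragments at the summit, with 1 panel per gene. Open symbols are the FA0 local background, which is not an FA0 count at the summit, and filled symbols the FA4 pileup. Circles mark peaks under the gene's own symbol and grey squares peaks under another symbol. Actn4 has its 3 tallest peaks beside the start of the gene and its lowest 27.2 kb beyond the peak before it, Gse1 has its tallest peaks near 106 kb with a Gm22715 peak beside them, and Rnf220 has 1 peak at 33 fragments among peaks of 11 to 18.

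Placed by coordinates, 5 peaks lay inside Actn4, 9 inside Gse1 and 5 inside Rnf220. The Gse1 count was 10 when the gene was extended by 3 kb on both sides. The added peak was listed for the lincRNA gene A330074K22Rik just upstream of the gene, with an FA0 background of 1.60 and an FA4 pileup of 10. Per 100 kb of gene, Actn4 held 7.24 peaks (exact Poisson 95% interval 2.35 to 16.9), Gse1 2.55 (1.17 to 4.84) and Rnf220 2.22 (0.720 to 5.17). These intervals overlapped. The genes were chosen for 6 rows each and differ in length, so the rates are a description and nothing was read from them. The only other peak of another symbol within 50 kb of the 3 genes was near Actn4. It was a promoter peak of Eif3k, which encodes a translation initiation factor subunit, with an FA0 background of 12.9 and an FA4 pileup of 36.

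In median level Rnf220 stood below Actn4 and Gse1, and the ranges of fold of the 3 genes overlapped. The lowest fold that is listed depends on the background, so differences in level and in fold were not weighed against each other. Actn4 peaks had a median FA0 background of 12.6 and a median FA4 pileup of 41, with folds of 2.53 to 3.77. Gse1 peaks had medians of 17.4 for the FA0 background and 46 for the FA4 pileup, with folds of 1.88 to 3.65. Rnf220 peaks had medians of 3.30 for the FA0 background and 13 for the FA4 pileup, with folds of 2.50 to 4.67. Within a gene, the tallest FA4 pileup was 2.6 times the lowest at Actn4, 7.36 times at Gse1 and 3.0 times at Rnf220. By this ratio Gse1 had the least even run. The order of Actn4 and Rnf220 was not read. Their lowest pileups, 20 and 11, have intervals of 12.2 to 30.9 and 5.49 to 19.7.

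**Figure D2:**
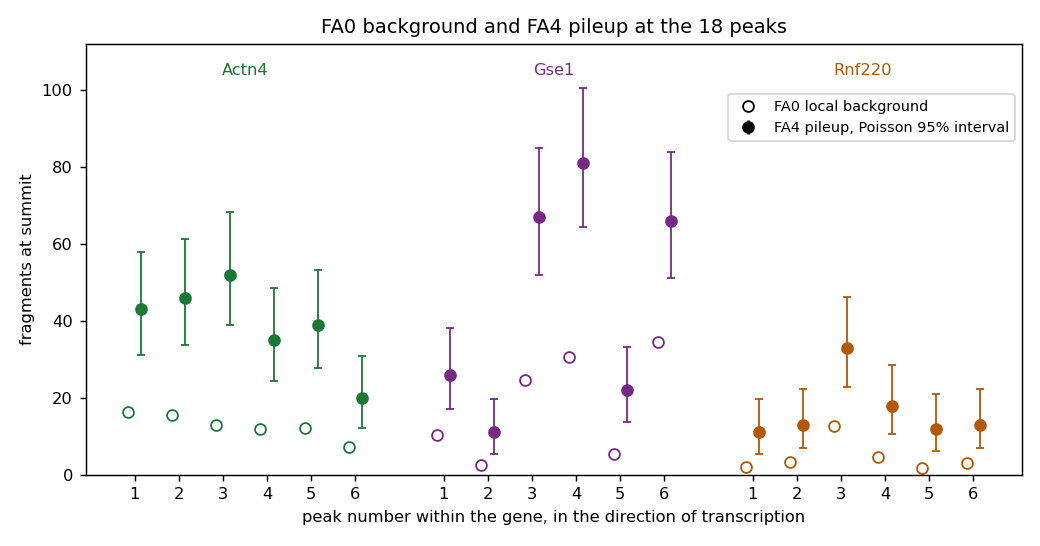
Fragments at the summit for the 18 peaks, numbered along the direction of transcription within each gene. Open circles are the FA0 local background, which is not an FA0 count at the summit. Filled circles are the FA4 pileup with its exact Poisson 95% interval. Gse1 peaks 3, 4 and 6 stand at 66 to 81 fragments above the other 3 Gse1 peaks at 11 to 26, while Actn4 peaks 1 to 5 stay between 35 and 52.

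Against their own class, the Actn4 promoter peaks had a median FA4 pileup of 43, beside 44 over all peaks called promoter within 1 kb and 13 over those at 1 to 3 kb. The Actn4 promoter peaks at 2 to 3 kb had pileups of 43 and 20. The 11 intron peaks of the 3 genes had a median FA4 pileup of 22, beside 11 over all intron peaks (quartiles 10 and 14). The genes differed in this, with pileups of 12 to 18 at the 4 Rnf220 intron peaks, 11 to 81 at Gse1 and 35 at Actn4. Members are not replicates of a condition, and no test was made of these differences.

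Fold and FA0 background are tied by construction, since the background was computed from the fold and a peak on a low background is listed only at a high fold. The 18 peaks had a median fold of 2.94, beside 3.84 over all peaks, and a median FA0 background of 11.0, beside 1.96 over all peaks. A fold of at least 3 was listed for 9 of the 18, beside 77.8% of all peaks. A −log10 q of at least 2 was listed for 13 of the 18, beside 71.1% of all peaks, and a −log10 q of at least 3 for 9 of the 18, beside 46.7%. Nothing was read from these shares, since the same contrast chose the members. None of the 18 stood at the lowest background in the table, which 36.5% of all peaks shared within 0.01. The lowest fold in the table was 3.32 where the background was under 2, 2.35 where it was 5 to 10, 1.90 where it was 10 to 20 and 1.53 where it was 30 or more. A fold as small as the 1.88 of Gse1 peak 6 was thus listed at no peak with a background under 20.

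**Figure D3:**
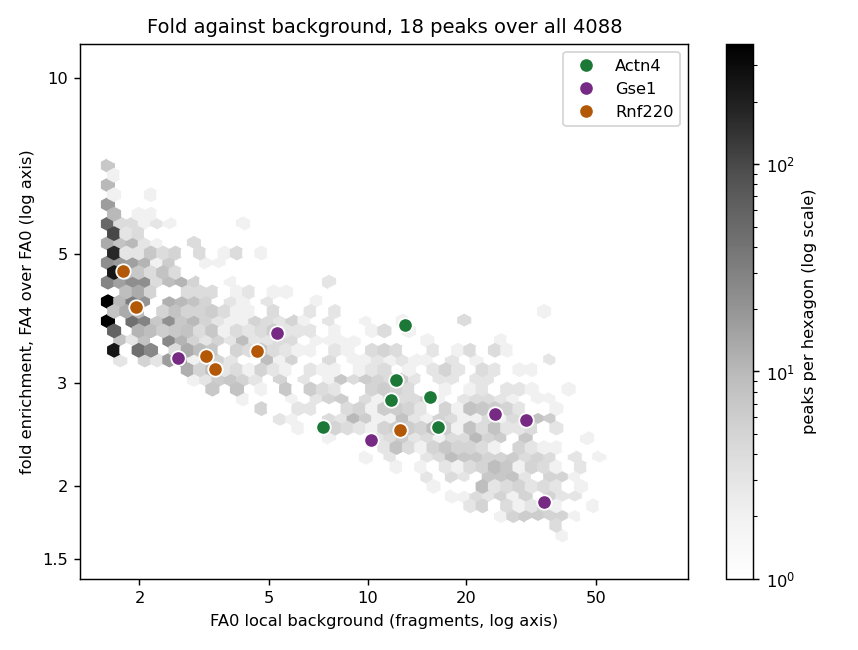
Fold enrichment of FA4 over FA0 (log axis) against the FA0 local background in fragments (log axis), with all 4088 peaks as grey hexagons shaded by number of peaks and the 18 peaks as coloured points. Rnf220 peaks lie mostly at backgrounds under 5 with folds above 3, Gse1 peak 6 lies at the lower right with a fold of 1.88, and the Actn4 peak at a fold of 3.77 stands highest among the members with a background above 10.

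Widths did not separate the genes clearly. The median width was 351 bp at Actn4 (253 to 909), 301.5 bp at Gse1 (258 to 399) and 288.5 bp at Rnf220 (261 to 399), beside 320 bp over all peaks. The peaks covered 5.97% of the distance between the outermost edges at Actn4, 0.757% at Gse1 and 0.993% at Rnf220. A summit within 50 bp of a peak's edge was found at 5 of the 18 peaks, beside 24.9% of all peaks.

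Counted by symbol, summits were closer together at Actn4 than at Gse1 or Rnf220. The median distance between neighbouring summits was 5.33 kb at Actn4, 29.6 kb at Gse1 and 20.5 kb at Rnf220. These genes are 69.1, 353 and 225.6 kb long with the same number of rows, and spacing was not set apart from gene length. The other symbols with 6 or more rows were Mir290a, Ptch1 and Jarid2 with 9 each, Gm47283 with 7 and 9330185C12Rik with 6. Mir290a, a microRNA gene of a stem cell cluster, had a median distance of 1.29 kb, and Gm47283, a lincRNA gene on chromosome Y, had 1.51 kb. Ptch1, the hedgehog receptor, had 3.70 kb, Jarid2, a component of Polycomb repressive complex 2, had 4.69 kb, and the lincRNA gene 9330185C12Rik had 5.10 kb. By symbol, Gse1 and Rnf220 each held 1 interval over 100 kb, as did 9330185C12Rik, but that of Gse1 held the 3 Gm22715 peaks and is not free of peaks by coordinates. Each also held shorter ones, with a smallest distance of 432 bp at Gse1 and 7.46 kb at Rnf220. Just under the 6 rows of the rule, 12 symbols had 5 rows, with spans of 6.70 to 561 kb and median FA4 pileups of 10 to 77.

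**Figure D4:**
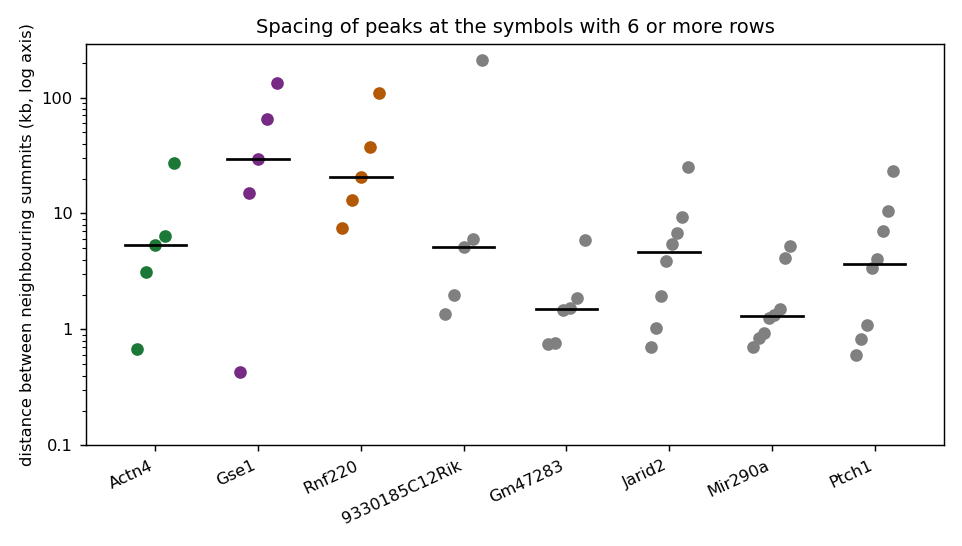
Distance between neighbouring summits in kb (log axis) for the 8 symbols with 6 or more rows, counting only peaks under the same symbol, with 1 point per interval and a bar at the median. Gse1 and Rnf220 have medians of 29.6 and 20.5 kb, above the 1.29 to 5.33 kb of the other 6 symbols.

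By the rule for similar genes, the pattern of each gene was compared with the 34 other symbols of at least 4 rows. Likeness was the sum, over the number of rows, the log10 span, the median log2 pileup and the share of promoter peaks, of the absolute difference in units of SD, so a smaller value means a closer pattern. The members have the same number of rows by selection, so that measure adds nothing to the distances between them. Their ranks among one another are therefore partly set by the rule and are a description. Closest to Actn4 were Rbm25 (2.09), Gpt2 (2.18) and Nrd1 (2.49). Closest to Gse1 were 9330185C12Rik (1.41), Rnf220 (2.36) and AC149090.1 (2.44), and closest to Rnf220 were Gm28190 (1.35), Clasp1 (1.41) and Pced1b (2.00). Actn4 stood at 3.87 from Gse1 and 4.79 from Rnf220, farther than its closest symbols.

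Each locus lay in a stretch with more listed peaks than the rest of its chromosome. Within 1 Mb of the gene on both sides there were 23 peaks at Actn4, or 11.1 per Mb (7.05 to 16.7), against 1.86 per Mb on the rest of chromosome 7. At Gse1 there were 28 peaks, or 11.9 per Mb (7.91 to 17.2), against 3.41 per Mb on the rest of chromosome 8. At Rnf220 there were 14 peaks, or 6.29 per Mb (3.44 to 10.6), against 1.60 per Mb on the rest of chromosome 4. Each count includes the gene's own 6 peaks, by which the gene was chosen, so the differences are a description. Chromosome lengths were taken up to the last RefSeq gene, and the median rate over the autosomes was 1.60 per Mb.

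The partner genes of the 3 proteins were counted from lists of known function. Beside the 9.28% of protein-coding genes with any row, 4.75% had a promoter row. Of 24 genes of actin crosslinking and focal adhesion, 8 had a row (33.3%, exact binomial 95% interval 15.6 to 55.3) and 4 had a promoter row. The promoter row of Actb, which encodes beta-actin, had an FA0 background of 20.8 and an FA4 pileup of 73, a fold of 3.40. That of Tln1, an integrin-binding linker to actin, had an FA0 background of 13.6 and an FA4 pileup of 37, a fold of 2.60. The other promoter rows were those of the spectrin gene Sptan1, with an FA0 background of 3.03 and an FA4 pileup of 13, and the talin gene Tln2, with an FA0 background of 2.15 and an FA4 pileup of 14. Tln2 also had an intron row. Genes listed by intron rows alone included Pdlim1, Sptbn1 and Actn2, the muscle relative of Actn4, whose FA4 pileup was 8. The closest relative of Actn4 in non-muscle cells, Actn1, had no row.

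Of 13 genes of the CoREST and HDAC complexes, the setting in which Gse1 protein was found, 2 had a row (15.4%, 1.92 to 45.4), both in the promoter class. Hdac1, a histone deacetylase, had an FA0 background of 26.3 and an FA4 pileup of 67, a fold of 2.49. Gtf2i, a transcription factor, had an FA0 background of 22.0 and an FA4 pileup of 72, a fold of 3.18. Kdm1a and Rcor1 had no row. Of 12 partners and substrates of Rnf220, 2 had a row (16.7%, 2.09 to 48.4). Gli1, a hedgehog transcription factor, had 2 promoter rows, one with an FA0 background of 24.3 and an FA4 pileup of 78 and the other with 32.0 and 74. Usp7, the deubiquitinase that acts with Rnf220, had 3 rows, of which the promoter row had an FA0 background of 24.1 and an FA4 pileup of 56. The 9.28% of all protein-coding genes lay inside the intervals of the CoREST and Rnf220 lists. The lists were chosen with results of these data known, and nothing particular to them was read from the counts.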

How the data were processed

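H3K27ac ChIP-seq of FA0 and FA4 mESCs gave 1 IP and 1 input library per group, and input libraries were not analysed here. The submitters' processing notes name bcl2fastq 2.17, the aligner Bowtie 1.1.2, the peak caller MACS2 2.1.0 and the build mm10. Their settings and the tool that annotated the peaks are not given in the sources used here. Of the 2 peak tables the authors deposited, 1 held all 4088 peaks and 1 the 1538 promoter peaks, which were identical rows of the first and included 6 of the 18. The pileup signal was deposited by the authors in whole fragments with no scaling. The authors deposited fold enrichment as a ratio in which 1 is added to both the pileup and the local background. They also deposited the −log10 of the q-value that the caller gave each peak, and their p-value column was not used.

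The FA0 background was obtained by dividing the pileup plus 1 by the fold and subtracting 1. Distances between summits, counts by class, counts by coordinates against RefSeq genes of GRCm38.p6, and rates per Mb were computed in Python 3.11.15 with numpy 2.4.6, pandas 2.3.3 and scipy 1.17.1, and plots were drawn with matplotlib 3.10.9. Intervals are exact Poisson for counts and exact binomial (Clopper-Pearson) for shares at the 95% level. These intervals cover counting error alone and make no allowance for copies of a fragment made during library preparation. The functions were tested on simulated peak tables with planted runs.

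Members and gene lists were chosen with earlier results of these data known. Named genes were the 3 members, symbols with 6 or more rows, symbols of peaks inside or within 50 kb of the genes, listed partners and cell type markers with a row, and the 3 closest symbols by pattern, except 1 gene that is not reported here. Actn1, Kdm1a and Rcor1 were named after their values were seen. The alternatives were a −log10 q of at least 2 or 3, a fold of at least 3, assignment by coordinates, merging of peaks under 1000 bp apart, midpoints, promoters within 1 kb, overlap with the gene, the promoter class alone for the lists, and windows of 250 kb. Sequences of the peaks themselves were not analysed here, and RefSeq promoter windows were used.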

Additional observations from a re-analysis of the deposited data

How the results depend on the processing

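Of 81 alternative values for 25 results, 56 were within 1.5 times the value given above and 25 were not. A −log10 q of at least 2 gave a span of 15.5 kb at Actn4, a median distance of 64.8 kb at Gse1 and 37.5 kb at Rnf220, and 3 peaks inside Rnf220. A −log10 q of at least 3 gave the same 15.5 kb at Actn4. At Gse1 it left 3 peaks with a span of 133 kb and a median distance of 66.6 kb, 5 peaks inside the gene and 6.38 peaks per Mb. At Rnf220 it left 1 peak, 0 promoter peaks, 1 peak inside the gene and 2.25 peaks per Mb, so no span or distance could be given, and 5 actin genes remained with a row. A fold of at least 3 left 2 peaks at Actn4 and 2 at Gse1. Assignment by coordinates with 3 kb on both sides gave 10 peaks at Gse1, and merging peaks under 1000 bp apart gave it a median distance of 47.2 kb. Promoters within 1 kb left 3 at Actn4 and 0 at Rnf220, and the promoter class alone left 4 actin genes. Windows of 250 kb gave 22.8 peaks per Mb at Actn4, 23.4 at Gse1 and 12.4 at Rnf220. Except where fewer peaks or a narrower window enter by construction, the cause was not tested. No paired analysis was possible because neither medium was sequenced in replicate, and leaving out a replicate could not be tried. Low pileups limit the precision, as a pileup of 11, found at Gse1 and at Rnf220, has an interval of 5.49 to 19.7.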
